A study of Mus musculus with 45 samples.

Results

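Interferon-stimulated antiviral effector genes are the genes that a cell switches on when it senses interferon, and whose products act on viral RNA, proteins and particles. The set described here holds 37 named genes out of the 55335 genes measured, chosen by their symbols. All 37 were found once in both of the study's tables, whose unit is FPKM, the fragments per kilobase of transcript after scaling by library size. The mouse lines were CT26, from a colon carcinoma, and Hepa1-6, from liver. For the drug experiment, unmodified (WT) cells were exposed for 48 h to a compound known only by the code name stk or to DMSO. The knockdown experiment used lines with 1 short hairpin RNA each, collected 24 h after seeding without treatment. CT26 carried 1 of 3 hairpins against Soat1 (sh1, sh2 or sh3) or a hairpin against luciferase (shLucif). Hepa1-6 carried a scrambled hairpin (scram) or shLucif. Soat1 encodes sterol O-acyltransferase, which esterifies cholesterol, and the study's title names it as an immune checkpoint of cancer stem cells. Each of the 10 groups was analysed with 3 libraries. For stk, each line has 6 labelled samples, and samples 4 to 6 were not analysed here. The labels give neither clones nor separate cultures, so p-values measure the spread between these libraries, which may be technical.

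Type I interferons bind a receptor made of IFNAR1 and IFNAR2, whose kinases JAK1 and TYK2 activate the transcription factor complex ISGF3. It binds interferon-stimulated response elements (ISRE) in promoters and switches on the genes described here. IRF7 is itself a target of the pathway, and USP18 feeds back on the receptor. Tumour cells can also start this programme themselves when RNA or DNA sensors in the cell make them secrete interferon beta.

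The promoters of several members carry the response element in letters. RefSeq promoter windows (build GRCm38.p6, 250 bases before to 50 after a start site) were found for 27 of the 37 members. No window was used for Ifi27, Ifi27l2a, Mx1, Mx2, Oas2, Parp9, Parp14, Rtp4, Usp18 and Zbp1. The core pattern, GAAA followed by any 2 bases and GAAA again, searched on both strands with overlapping matches allowed, was present in 11 of the 27 members (40.7%), against 1079 of 27025 genes with a window (3.99%). These were Ifit1, Ifit3, Ifit3b, Eif2ak2, Oas1a, Oas1g, Oas3, Isg15, Rsad2, Bst2 and Trim30a. A match describes letters and not a bound site. The stretches around the ISRE matches are given for 7 members that cover the main protein families, 5′ to 3′ on the strand of the gene, with the matches in capitals (TTTC, any 2 bases and TTTC is the same pattern on the other strand).
Ifit1, chr19:34640755-34640843, plus strand: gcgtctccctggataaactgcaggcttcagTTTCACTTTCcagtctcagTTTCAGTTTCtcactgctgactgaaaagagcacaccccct
Ifit3, chr19:34583343-34583446, plus strand: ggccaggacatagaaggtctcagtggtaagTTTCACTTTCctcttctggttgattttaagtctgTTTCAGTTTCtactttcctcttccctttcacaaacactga
Isg15, chr4:156200845-156200926, minus strand: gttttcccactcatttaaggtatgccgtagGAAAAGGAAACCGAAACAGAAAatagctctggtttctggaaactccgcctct
Oas1a, chr5:120907526-120907575, minus strand: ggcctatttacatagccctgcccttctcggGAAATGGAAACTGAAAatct
Oas3, chr5:120777695-120777764, minus strand: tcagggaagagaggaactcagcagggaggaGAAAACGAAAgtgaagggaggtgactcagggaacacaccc
Rsad2, chr12:26456533-26456602, minus strand: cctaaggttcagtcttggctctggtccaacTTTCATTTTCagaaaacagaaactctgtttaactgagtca
Bst2, chr8:71537557-71537632, minus strand: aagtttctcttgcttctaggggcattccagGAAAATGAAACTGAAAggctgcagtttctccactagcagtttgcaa
Isg15, Oas1a and Bst2 carried matches that run into each other, whereas in Ifit1 and Ifit3 they stood apart. The stretch of Ifit3b was letter for letter that of Ifit3, and the stretch of Oas1g repeated that of Oas1a up to its last bases. These stretches lie before the start sites, and the transcripts of the 2 pairs were not compared. Where transcripts are near-identical too, their fragments can be split between the copies by the counting. The single values of these pairs are therefore uncertain.

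Before any interferon gene is read, the libraries were checked against their labels. Soat1 had 3.29, 3.23 and 3.28 FPKM with sh1, 3.44, 3.55 and 3.41 FPKM with sh2 and 2.52, 2.54 and 2.71 FPKM with sh3, against 19.6, 19.9 and 20.2 FPKM with shLucif, so all 3 hairpins lowered their target (log2 fold changes of FPKM + 1 of -2.29 ± 0.04, -2.23 ± 0.04 and -2.54 ± 0.04, SE). The sh1 and sh2 libraries were as alike as replicates: their 9 pairwise correlations of log2 values ran from 0.991 to 0.992, against 0.990 to 0.992 among the sh1 libraries and 0.961 to 0.971 between sh3 and sh1. Hepa1-6 libraries labelled shLucif went against the markers of their line. Alb, the albumin gene, had 143, 123 and 139.8 FPKM with scram, against 1.78, 1.36 and 1.33 FPKM with shLucif, and 164, 156 and 157 FPKM in Hepa1-6 with DMSO. The 12 hepatocyte markers summed to 408 to 444 FPKM with scram and 67.8 to 76.2 FPKM with shLucif. The 7 fibroblast markers summed to 247 to 266 FPKM with scram and 43.8 to 49.9 FPKM with shLucif. Within that list Dcn, the decorin gene, averaged 257 FPKM with scram and 17.1 FPKM with shLucif, while Col1a1, a collagen gene, averaged 0.154 FPKM with scram and 13.7 FPKM with shLucif. Soat1 itself averaged 0.146 FPKM with scram, against 13.1 FPKM with shLucif. Of 10 intestinal epithelium markers, 1 to 4 averaged 1 FPKM or more in the CT26 groups, led by the keratin gene Krt20 at 26.3 FPKM with stk and 26.5 FPKM with DMSO. Epcam and Cdh1, which mark epithelium, had at most 0.0297 FPKM in any CT26 library. In Hepa1-6 with DMSO, 7 of these markers averaged 1 FPKM or more, with Krt20 at 70.2 FPKM. The 10 summed to 1557 to 1602 FPKM there, against 26.3 to 30.4 FPKM in CT26 with DMSO, so they did not mark CT26 as gut. Of the 9 leukocyte markers, Cd14 and Cd68 exceeded 1 FPKM in every group, while Ptprc and Cd3e, which define leukocytes and T cells, stayed under 0.03 FPKM in every library. The 4 endothelial markers summed to at most 0.522 FPKM everywhere. FPKM carry no read totals, so depth is unknown.

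Against shLucif, CT26 cells with sh1 or sh2 carried far more transcript of nearly every antiviral effector, and cells with sh3 carried less. With sh1, 34 of the 37 members rose and 2 fell, where 37.8% of all 11832 tested genes changed, 19.1% up and 18.7% down. With sh2, 35 rose and 1 fell, where 38.9% of genes changed, 18.9% up and 20% down. With sh3, 34 fell and 1 rose, where 52.5% of genes changed, 30.9% up and 21.6% down. The libraries of the 2 groups did not overlap for 37 members with sh1, 36 with sh2 and 35 with sh3, against 50.1%, 52.1% and 61.8% of all genes. The median log2 fold change of the members was 1.26 with sh1, 1.39 with sh2 and -1.15 with sh3, while that of all tested genes was -0.0045, -0.01 and 0.04. Summed over the members, the level was 2215 ± 94.4 FPKM with sh1, 2390.0 ± 72.2 FPKM with sh2 and 408 ± 31.6 FPKM with sh3, against 847 ± 10.4 FPKM with shLucif (SD, n = 3 each). Tests were limma fits on log2(FPKM + 1) with Benjamini-Hochberg adjustment over all genes with at least 1 FPKM in 3 libraries, called at an adjusted p under 0.05. All 37 members were tested; Mx1, Mx2, Cmpk2 and Epsti1 averaged under 1 FPKM in at least 1 of the 4 groups. The 3 comparisons share the shLucif libraries. In bulk RNA, fewer cells of a kind and less RNA per cell cannot be told apart.

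**Figure D1:**
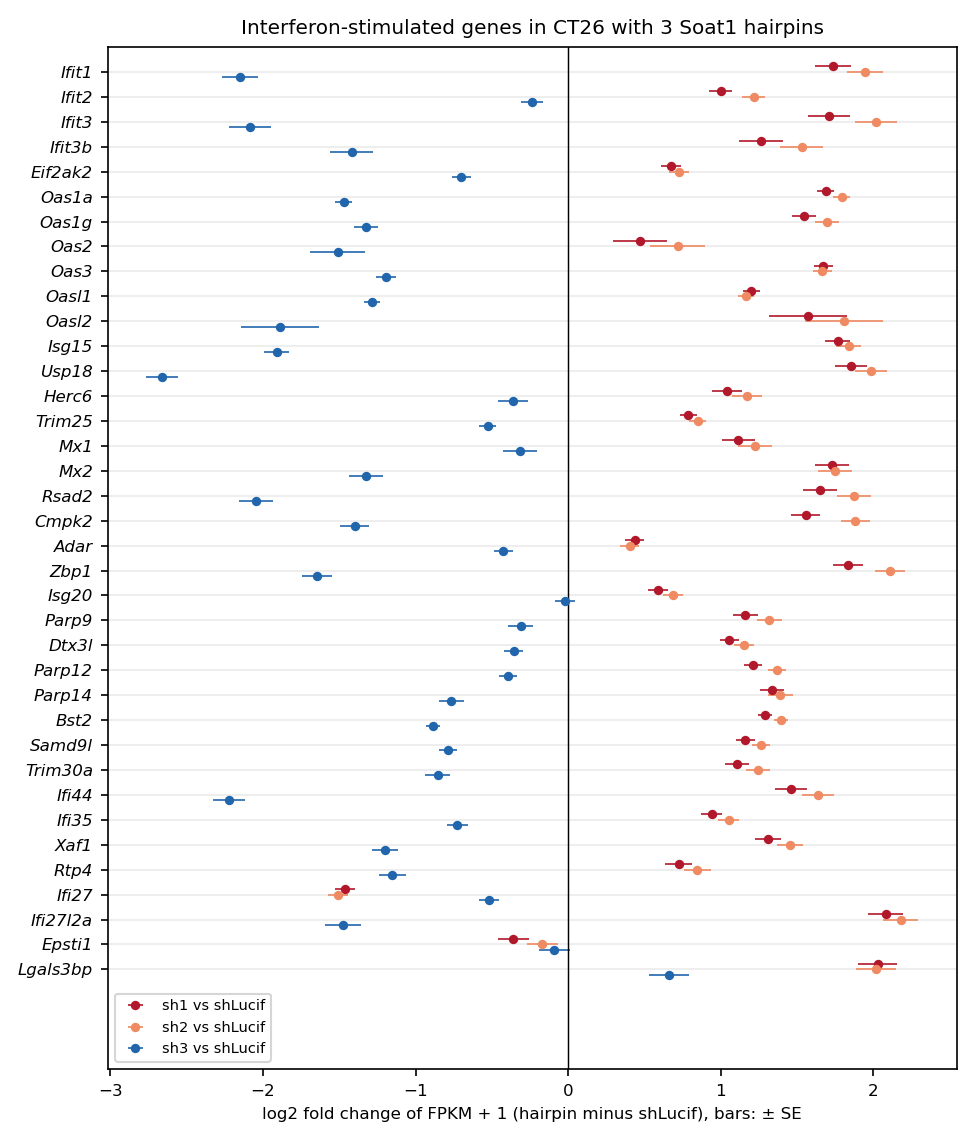
Log2 fold change of FPKM + 1 (horizontal axis, ± SE, n = 3 libraries a group) of the 37 members (vertical axis) in CT26 with sh1, sh2 or sh3, each against shLucif. Nearly all points of sh1 and sh2 lie right of 0 and those of sh3 left of 0; Ifi27 lies left of 0 with all 3 hairpins and Lgals3bp right of 0 with all 3.

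The 5 effectors of double-stranded RNA and cap sensing all rose with sh1 and sh2 and fell with sh3. Ifit1, which holds back translation of RNA with an unmethylated cap, had 120.2, 136 and 141 FPKM with sh1, 159, 144 and 156 FPKM with sh2 and 7.39, 6.72 and 10.3 FPKM with sh3, against 38.6, 39.1 and 39.3 FPKM with shLucif. The 4 groups did not overlap, and the log2 fold changes were 1.74 ± 0.12 with sh1 (adjusted p = 1.10e-06), 1.95 ± 0.12 with sh2 (4.54e-07) and -2.15 ± 0.12 with sh3 (1.59e-07). Ifit3, its binding partner, had 37.7, 44.1 and 45.2 FPKM with sh1, 49.7, 49.95 and 58.3 FPKM with sh2 and 2.31, 1.41 and 2.76 FPKM with sh3, against 12.1, 12.3 and 12.2 FPKM with shLucif. The sh1 and sh2 libraries were at least 37.7 FPKM and those of sh3 at most 2.76 FPKM. Ifit3b followed with means of 12.2, 14.8 and 1.06 FPKM with sh1, sh2 and sh3, against 4.47 FPKM with shLucif. Ifit2 moved less with sh3: it averaged 15, 17.6 and 5.78 FPKM with sh1, sh2 and sh3, against 6.99 FPKM with shLucif, and its fall (-0.24 ± 0.07, adjusted p = 0.0175) did not pass the limma threshold without shLucif library 1 (adjusted p = 0.0535) or without sh3 library 3 (0.063). Eif2ak2, the kinase PKR that stops translation on sensing double-stranded RNA, averaged 30.9, 32.2 and 11.3 FPKM with sh1, sh2 and sh3, against 19 FPKM with shLucif.

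The oligoadenylate synthetase family includes enzymes that make the messenger activating RNase L, and the related Oasl genes. All 6 members of it fell with sh3, 5 rose with sh1 and 6 with sh2. Oas1a had 116, 128 and 121 FPKM with sh1, 128, 129.9 and 136 FPKM with sh2 and 12.2, 12.1 and 14 FPKM with sh3, against 36.6, 37.3 and 37.7 FPKM with shLucif. All sh1 and sh2 libraries lay above, and all sh3 libraries below, those with shLucif, with log2 fold changes of 1.69 with sh1, 1.79 with sh2 and -1.47 with sh3. Oas3, the largest of these enzymes, had 32.7, 33.5 and 32.2 FPKM with sh1, 31.1, 33.6 and 33.4 FPKM with sh2 and 3.35, 3.41 and 4.18 FPKM with sh3, against 9.26, 9.98 and 9.6 FPKM with shLucif. Its neighbour Oas2 had 23.6, 16 and 14 FPKM with sh1, 19.9, 17.8 and 25.6 FPKM with sh2 and 3.53, 3.13 and 4.43 FPKM with sh3, against 11.6, 13 and 12.4 FPKM with shLucif. The sh1 libraries of Oas2 were spread widely, and it was the member not called with sh1, at 0.47 ± 0.18 (limma adjusted p = 0.0595); without 1 of the sh1 libraries it was 0.62 and passed (0.0235). It passed with 0.72 ± 0.18 for sh2 and -1.51 ± 0.18 for sh3. Oasl2 had 42.5, 44.3 and 45 FPKM with sh1, 40.7, 72.3 and 47.8 FPKM with sh2 and 2.27, 2.21 and 5.53 FPKM with sh3, against 12.9, 14.7 and 14.9 FPKM with shLucif. 1 sh2 and 1 sh3 library of Oasl2 stood above their group, and its SE of 0.26 was the largest of the members. Oasl1, which in mice restrains translation of Irf7, averaged 124, 121 and 21.4 FPKM with sh1, sh2 and sh3, against 53.5 FPKM with shLucif, and Oas1g averaged 51.6, 57.4 and 6.23 FPKM with sh1, sh2 and sh3, against 17 FPKM with shLucif.

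The ISG15 system attaches a ubiquitin-like tag to proteins during infection. Isg15, the tag itself, had 376, 414 and 385 FPKM with sh1, 430.3, 390.2 and 414 FPKM with sh2 and 27.7, 27.1 and 34.8 FPKM with sh3, against 116, 116 and 111 FPKM with shLucif. The sh1 and sh2 libraries overlapped each other and lay above shLucif, and sh3 lay below it, with log2 fold changes of 1.77 ± 0.08 with sh1 (adjusted p = 9.71e-08), 1.84 ± 0.08 with sh2 (7.27e-08) and -1.91 ± 0.08 with sh3 (3.20e-08). Usp18, the protease that removes the tag and quiets the interferon receptor, had 95.8, 104 and 105 FPKM with sh1, 116, 104 and 114 FPKM with sh2 and 2.98, 3.09 and 4.53 FPKM with sh3, against 26.8, 27.3 and 28 FPKM with shLucif. Its fall with sh3 (-2.66 ± 0.10, adjusted p = 1.65e-08) had the largest size of any member against shLucif. Herc6, the ligase of the tag in mice, averaged 7.62, 8.41 and 2.25 FPKM with sh1, sh2 and sh3, against 3.18 FPKM with shLucif. Trim25, a ubiquitin ligase that supports RIG-I, averaged 50.2, 52.5 and 19.6 FPKM with sh1, sh2 and sh3, against 28.6 FPKM with shLucif, and both passed the test in each comparison.

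The Mx GTPases, which trap viral capsids, and the viperin locus followed. Mx2 had 11.8, 12.3 and 12.3 FPKM with sh1, 11.4, 12.6 and 13 FPKM with sh2 and 0.685, 0.296 and 0.813 FPKM with sh3, against 2.8, 2.75 and 3.37 FPKM with shLucif; the annotation lists this gene as a polymorphic pseudogene. Mx1 averaged 1.97, 2.22 and 0.101 FPKM with sh1, sh2 and sh3, against 0.379 FPKM with shLucif. Its mean reached 1 FPKM only with sh1 and sh2, so it passed the filter through these groups and had to be higher there. Its fall with sh3 (-0.32 ± 0.11, adjusted p = 0.0312) lost the limma call without any one of 4 of the 6 libraries (sh3 1 or 2, shLucif 1 or 2; adjusted p from 0.0507 to 0.123). Rsad2, the viperin gene, whose enzyme makes a chain-terminating nucleotide, had 32.4, 39 and 40.6 FPKM with sh1, 42.2, 41.5 and 47.1 FPKM with sh2 and 1.79, 1.63 and 2.47 FPKM with sh3, against 10.4, 11.2 and 12 FPKM with shLucif. Cmpk2, the nucleotide kinase that lies 12751 bases from it on chromosome 12, had 12.9, 13.3 and 14.1 FPKM with sh1, 17.9, 15.2 and 18.4 FPKM with sh2 and 0.811, 0.666 and 1.12 FPKM with sh3, against 3.62, 3.88 and 4.21 FPKM with shLucif. Both neighbours moved together, by 1.65 and 1.56 with sh1, 1.87 and 1.88 with sh2, and -2.05 and -1.40 with sh3 on the log2 scale.

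Zbp1, the sensor of Z-shaped nucleic acid that can start necroptosis, had 20.5, 22.7 and 26.9 FPKM with sh1, 30.2, 26.1 and 28.7 FPKM with sh2 and 1.25, 0.942 and 1.34 FPKM with sh3, against 5.64, 5.69 and 6.07 FPKM with shLucif. Its log2 fold changes were 1.83 ± 0.10 with sh1 (adjusted p = 3.07e-07), 2.11 ± 0.10 with sh2 (1.09e-07) and -1.65 ± 0.10 with sh3 (2.96e-07). Adar, the enzyme that edits adenosines in double-stranded RNA, had the smallest rises of the members that rose, with means of 14.3, 13.9 and 7.41 FPKM with sh1, sh2 and sh3, against 10.3 FPKM with shLucif. Isg20, an RNA exonuclease, rose with sh1 and sh2 but had 8.09, 8.04 and 8.85 FPKM with sh3, against 8.21, 8.18 and 9.03 FPKM with shLucif. That difference of -0.02 ± 0.07 did not pass (adjusted p = 0.80, 95% interval -0.17 to 0.12).

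The 4 genes of the ADP-ribosylation group all rose with sh1 and sh2 and fell with sh3. Parp9 averaged 12.9, 14.4 and 3.98 FPKM with sh1, sh2 and sh3, against 5.17 FPKM with shLucif, and Dtx3l, its partner ubiquitin ligase, 7.73, 8.33 and 2.27 FPKM with sh1, sh2 and sh3, against 3.19 FPKM with shLucif. The genes overlap at their starts on opposite strands of chromosome 16, so without strand in the counting their fragments could be shared. Parp12 averaged 38, 42.4 and 11.8 FPKM with sh1, sh2 and sh3, against 15.8 FPKM with shLucif, and Parp14 9.34, 9.74 and 1.41 FPKM with sh1, sh2 and sh3, against 3.1 FPKM with shLucif. Their medians were 1.19, 1.34 and -0.38 with sh1, sh2 and sh3 on the log2 scale. Among restriction factors, Bst2 (tetherin), which holds budding virus at the cell surface and had the highest mean FPKM of the members in all 4 groups, had 482, 526 and 503 FPKM with sh1, 544, 517 and 564 FPKM with sh2 and 109.9, 106 and 116 FPKM with sh3, against 201, 211 and 203 FPKM with shLucif. Samd9l, a restriction factor of poxviruses, averaged 30.1, 32.4 and 7.03 FPKM with sh1, sh2 and sh3, against 12.9 FPKM with shLucif. Trim30a, a TRIM protein that dampens Toll-like receptor signalling, averaged 26.6, 29.3 and 6.08 FPKM with sh1, sh2 and sh3, against 11.8 FPKM with shLucif.

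The remaining interferon-induced genes held 3 members that went their own way. Ifi44 had 33.9, 37.4 and 42.4 FPKM with sh1, 41.4, 41.9 and 45 FPKM with sh2 and 1.77, 1.79 and 2.54 FPKM with sh3, against 11.9, 13.6 and 13.7 FPKM with shLucif, close to the pattern of Ifit1. Ifi35, Xaf1 and Rtp4 also rose with sh1 and sh2 and fell with sh3, with log2 fold changes of 0.94 with sh1, 1.05 with sh2 and -0.73 with sh3 for Ifi35, 1.31 with sh1, 1.45 with sh2 and -1.20 with sh3 for Xaf1, and 0.72 with sh1, 0.85 with sh2 and -1.15 with sh3 for Rtp4. Ifi27l2a had 60.9, 67.5 and 55.7 FPKM with sh1, 67.8, 59.6 and 69.8 FPKM with sh2 and 5.34, 4.26 and 3.42 FPKM with sh3, against 13.6, 13.3 and 14.3 FPKM with shLucif. Its rises of 2.08 ± 0.12 with sh1 and 2.18 ± 0.12 with sh2 were the largest of the members. Ifi27, a gene of the same family, lies 1927 bases away on the other strand (chr12:103434211-103440239, against chr12:103442167-103443680 for Ifi27l2a, GRCm38). It had 24, 22.1 and 22 FPKM with sh1, 22.9, 22.7 and 20.3 FPKM with sh2 and 44.1, 41 and 48.6 FPKM with sh3, against 66.2, 62.8 and 63.6 FPKM with shLucif. All 9 hairpin libraries of Ifi27 lay below all shLucif libraries, and it fell with each hairpin, with log2 fold changes of -1.46 ± 0.07 with sh1 (adjusted p = 7.74e-08), -1.51 ± 0.07 with sh2 (6.71e-08) and -0.52 ± 0.07 with sh3 (5.53e-05). Lgals3bp, a secreted glycoprotein that binds galectins, had 113, 114 and 105 FPKM with sh1, 103, 115 and 112 FPKM with sh2 and 50.9, 32 and 46.3 FPKM with sh3, against 25.6, 25.6 and 28 FPKM with shLucif. It rose with each hairpin, by 2.03 ± 0.13 with sh1 (adjusted p = 8.73e-07), 2.02 ± 0.13 with sh2 (8.07e-07) and 0.66 ± 0.13 with sh3 (0.00136). Epsti1 had 0.587, 0.568 and 0.496 FPKM with sh1, 1.04, 0.65 and 0.643 FPKM with sh2 and 1.09, 0.747 and 0.784 FPKM with sh3, against 0.914, 0.932 and 1.12 FPKM with shLucif, under or near 1 FPKM throughout. Its fall with sh1 (-0.36 ± 0.10, adjusted p = 0.0168) did not pass without 1 of the sh1 libraries (limma adjusted p = 0.0503).

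**Figure D2:**
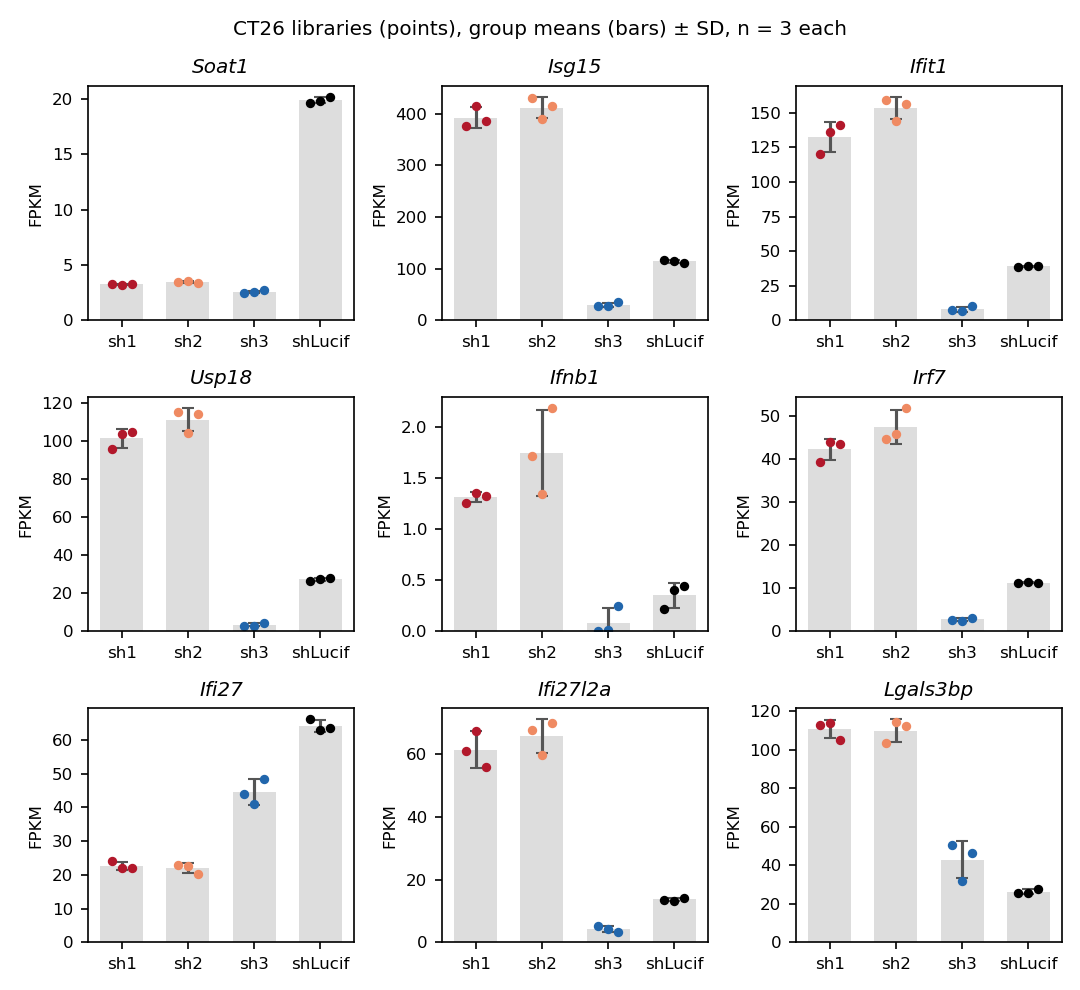
FPKM (vertical axis, from 0) of Soat1, 6 members and the pathway genes Ifnb1 and Irf7 in the CT26 libraries with sh1, sh2, sh3 and shLucif; points are libraries, bars are means ± SD, n = 3. Soat1 is low with every hairpin, whereas Isg15, Ifit1 and Usp18 are above shLucif with sh1 and sh2 and below it with sh3, and Ifi27 is below it with all 3.

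Counted gene by gene, 32 of the 37 members rose with sh1 and with sh2 and fell with sh3. Oas2 lacked the call with sh1, Isg20 lacked it with sh3, Epsti1 was called only with sh1, Ifi27 fell with all 3 and Lgals3bp rose with all 3. The mean of the 3 hairpins averages opposite directions: 32 members were called higher and 1 lower, where 43.1% of all genes were called, 23.4% higher and 19.8% lower, but the hairpin and shLucif libraries overlapped for 35 of the 37 members, all but Ifi27 and Lgals3bp, while 19.7% of all genes did not overlap. Their median was 0.55 on the log2 scale.

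Tested against the average of sh1 and sh2, sh3 had 35 members lower and 1 higher, where 60.2% of all genes were called, 35.5% higher and 24.7% lower. No overlap was seen for 36 of the 37, against 53.2% of all genes. The median log2 difference of the members was -2.13, against 0.06 for all tested genes. Usp18 differed most, with -4.58 ± 0.09 (adjusted p = 3.72e-11), from a mean of 3.53 FPKM with sh3 against 102 FPKM with sh1 and 111 FPKM with sh2. Ifit1 (-3.99), Ifit3 (-3.95), Rsad2 (-3.81), Ifi44 (-3.77), Isg15 (-3.71), Zbp1 (-3.62), Ifi27l2a (-3.61), Oasl2 (-3.58) and Oas1a (-3.21) came next on the log2 scale. Ifi27 was the member higher with sh3 (0.96 ± 0.06, adjusted p = 1.23e-07), and Epsti1 did not pass (0.17 ± 0.09, adjusted p = 0.111). Soat1 was a little lower with sh3 than with sh1 and sh2 (-0.28 ± 0.04, limma adjusted p = 4.12e-05). How the level of Soat1 relates to the direction of the members in these groups was not tested. Marker sums of other cell types differed between these groups as well. The 7 fibroblast markers summed to 126 to 131 FPKM with sh1, 116 to 126 FPKM with sh2 and 180.5 to 188 FPKM with sh3, against 128 to 130.1 FPKM with shLucif, and the 9 leukocyte markers, led by Cd14, to 30.3 to 33.2, 32.2 to 34.9 and 41.5 to 46.7 FPKM, against 23.4 to 23.6 FPKM. The 10 intestinal markers summed to 27.1 to 36.7 FPKM with sh1, 25.4 to 29.8 FPKM with sh2 and 44.4 to 48.8 FPKM with sh3, against 24.6 to 24.7 FPKM with shLucif, and the 12 hepatocyte markers to 7.99 to 8.95, 7.62 to 8.6 and 8.92 to 9.32 FPKM, against 5.77 to 6.99 FPKM. The fibroblast, leukocyte and intestinal sums were highest with sh3, the hepatocyte sums with sh3 and sh1 overlapped, and so did the fibroblast sums with sh1 and shLucif. Their part in the interferon result was not tested.

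A comparison of sh2 with sh1, added after the values had been seen, called 0 of the 37 members by limma, with 6 at an unadjusted p under 0.05. In all, 0.0169% of genes (2 of 11832) were called, 0.00845% higher and 0.00845% lower. There was no overlap for 8 members, all higher with sh2, against 12.5% of all genes. The median log2 difference of the members was 0.12, and 32 of 37 were positive, while the median of all tested genes was -0.0055. The share of positive signs over all genes was not counted. The largest were Cmpk2 at 0.33 (95% interval 0.12 to 0.54), Ifit3 at 0.31 (0.01 to 0.61) and Zbp1 at 0.27 (0.06 to 0.49). These intervals are not adjusted for the number of members.

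Other genes of the interferon pathway were taken from a list of 98, of which 69 were tested in CT26. With sh1, 51 rose and 4 fell, where 19.1% of all genes rose and 18.7% fell. With sh2, 53 rose and 5 fell, where 18.9% of all genes rose and 20% fell. With sh3, 12 rose and 38 fell, where 30.9% of all genes rose and 21.6% fell. By group mean, 68 pathway genes reached 1 FPKM with sh1, 69 with sh2, 60 with sh3 and 66 with shLucif. Tested genes that passed the filter through some groups only had to be higher there, so these counts are partly set by the filter. Of the 20 interferon ligand genes, Ifnb1, interferon beta, alone was tested, and it had 1.26, 1.36 and 1.32 FPKM with sh1, 1.72, 1.34 and 2.19 FPKM with sh2 and 0, 0.0129 and 0.249 FPKM with sh3, against 0.216, 0.408 and 0.442 FPKM with shLucif. The sh1 and sh2 libraries were all higher than those with shLucif, while sh3 overlapped shLucif. Only the sh1 and sh2 libraries reached 1 FPKM, so Ifnb1 passed the filter through them and had to be higher there. The rises were 0.78 ± 0.12 and 1.01 ± 0.12, and the fall with sh3 (-0.32 ± 0.12, adjusted p = 0.0471) did not pass the limma threshold without sh3 library 1 or 2 or shLucif library 2 or 3 (adjusted p from 0.119 to 0.147).

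Irf7, the factor that amplifies interferon transcription, had 39.4, 43.9 and 43.5 FPKM with sh1, 44.6, 45.9 and 51.8 FPKM with sh2 and 2.71, 2.51 and 3.19 FPKM with sh3, against 11.2, 11.4 and 11.2 FPKM with shLucif. Its fold changes followed the members at 1.81 with sh1, 1.98 with sh2 and -1.70 with sh3. The interferon gamma leaning genes rose in 9 of 9 tested cases with sh1 and with sh2 and fell in 9 of 9 with sh3. How many of these 9 passed the filter through some groups only was not counted. Gbp3 and Gbp2, guanylate-binding proteins that attack microbes inside cells, had the largest rises of the list, with 2.07 and 2.0 for sh1 and 2.31 and 2.24 for sh2. Slfn2 rose by 1.87 and 2.20, and Cxcl10, a chemokine that draws T cells, by 1.77 and 1.83. Irgm2 and Irgm1, immunity-related GTPases, fell with sh3 by 1.35 and 1.31. The receptors and their kinases did not share this split: 6 of 8 rose with sh3, 4 with sh1 and 5 with sh2. Of all genes, 30.9% rose with sh3, 19.1% with sh1 and 18.9% with sh2, and 21.6% fell with sh3. Ifnar1, named after its values were seen, had 8.56, 7.76 and 6.19 FPKM with sh1, 6.35, 6.77 and 7.4 FPKM with sh2 and 8.55, 6.87 and 6.57 FPKM with sh3, against 3.37, 2.6 and 3.36 FPKM with shLucif. It rose with all 3 hairpins, by 1.04 ± 0.12 with sh1 (adjusted p = 6.65e-05), 0.94 ± 0.12 with sh2 (1.46e-04) and 1.02 ± 0.12 with sh3 (4.23e-05).

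The members with an ISRE match in the window had a median log2 fold change of 1.65 with sh1, 1.69 with sh2 and -1.42 with sh3 (n = 11). The 16 members with a window and no match had 1.11, 1.19 and -0.48. The ranges overlapped, from 0.67 to 1.77 with the match and from -0.36 to 2.03 without it for sh1, and no test was made.

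Exposure to stk for 48 h was followed by no called change in these genes in either line. In CT26, 0 of the 35 tested members were called and 1 had an unadjusted p under 0.05, where 0.748% of all 11358 genes were called, 0.132% higher and 0.616% lower. Groups did not overlap for 2 of the 37 members, Ifi27 and the untested Epsti1, against 21.4% of all tested genes. Isg15 had 70.5, 31.2 and 63.2 FPKM with stk, against 64.8, 47.2 and 75.9 FPKM with DMSO. Ifit3 had 5.9, 1.59 and 3.65 FPKM with stk, against 4.42, 3.13 and 7.52 FPKM with DMSO, and Lgals3bp had 76.4, 43.8 and 74.2 FPKM with stk, against 49.6, 42.8 and 78 FPKM with DMSO. The groups overlapped for all 3, which had the largest differences in size, at -0.24 for Isg15 (95% interval -1.01 to 0.53), -0.40 for Ifit3 (-1.36 to 0.56) and 0.19 for Lgals3bp (-0.49 to 0.87), on the log2 scale. These intervals are wide, so a shift within them was not detectable with these libraries. Ifi27 was the member under 0.05 before adjustment: it had 37.7, 38.2 and 40.9 FPKM with stk, against 42.1, 41.8 and 42.6 FPKM with DMSO, with no overlap, a difference of -0.11 ± 0.04 and a limma adjusted p of 0.278. Epsti1 and Mx1 stayed under 1 FPKM and were not tested. The median over the members was -0.06, with 29 of 35 negative, and that of all tested genes was -0.0055. The members went up and down together across these libraries, as given below, so their signs are not independent. The share of negative signs over all genes was not counted. Of the other pathway genes, 0 of 65 were called.

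In Hepa1-6, 0 of the 18 tested members were called and 2 had an unadjusted p under 0.05, where 1.53% of all 11426 genes were called, 0.683% higher and 0.849% lower. The libraries did not overlap for 6 of the 37 members: Eif2ak2, Oas1a, Oas1g, Parp12, Usp18 and Zbp1. Zbp1 was not among the 18 tested members. Over all tested genes the share was 30.8%, which is not to be set against the 37, since most untested members lay near 0. Oas1g had 0.892, 1.03 and 0.944 FPKM with stk, against 1.81, 1.89 and 1.19 FPKM with DMSO. The libraries did not overlap, yet the difference of -0.42 ± 0.12 did not pass (limma adjusted p = 0.11). Eif2ak2 had 7.14, 7.78 and 8.25 FPKM with stk, against 8.34, 9.54 and 8.93 FPKM with DMSO, a difference of -0.19 ± 0.07 (adjusted p = 0.173). Ifi27l2a had 2.2, 1.34 and 0.737 FPKM with stk, against 1.17, 2.95 and 2.18 FPKM with DMSO, with wide overlap and a difference of -0.36 ± 0.28. The other 19 members did not pass the filter of 1 FPKM, among them Ifit1 at 0.127 FPKM with stk and 0.0578 FPKM with DMSO. The response to stk was not called different between the lines for any of 35 members by limma's interaction test, with 0 at an unadjusted p under 0.05 (0.304% of all genes called, 0.109% higher and 0.195% lower). The largest difference of responses, CT26 minus Hepa1-6, was that of Ifit3 at -0.39 (95% interval -1.40 to 0.61). Of the 49 other pathway genes tested in Hepa1-6, Mavs, the adaptor of the RNA sensors, was called: it had 22.4, 21.2 and 21.8 FPKM with stk, against 17.3, 17.5 and 17.9 FPKM with DMSO, a rise of 0.30 ± 0.04 (adjusted p = 0.042) that did not pass the limma threshold without any one of the 6 libraries (adjusted p from 0.0676 to 0.123).

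Within the CT26 groups of the drug experiment the members had a larger median spread between libraries than all genes had. The median coefficient of variation of the members was 28.4% with stk and 24.1% with DMSO, against 6.53% and 5.8% for all genes at 1 FPKM or more. The other pathway genes stood between, at 13.8% with stk and 11.8% with DMSO. In Hepa1-6 the members had 13.2% with stk and 7.25% with DMSO, against 6.32% and 5.8% for all genes. In the CT26 knockdown groups they had 5.63%, 6.66% and 11.5% with sh1, sh2 and sh3, and 4.06% with shLucif, against 6.57%, 6.05%, 6.19% and 5.36% for all genes. In the CT26 drug groups the members went up and down together. Among the stk libraries, library 2 was lowest for 31 of 35 members and library 1 highest for 27, and among the DMSO libraries library 2 was lowest for 33 and library 3 highest for 33. For all genes, each of these libraries was lowest or highest for 31.4% to 35.7% of genes. Usp18 had 16.7, 7.15 and 14.9 FPKM with stk, against 14.7, 9.17 and 19.1 FPKM with DMSO, and Ifit1 had 24.4, 9.15 and 21.8 FPKM with stk, against 20.02, 14 and 23.3 FPKM with DMSO. The highest and lowest library of 1 group differed by more than the group means for both genes. The lowest coefficient of variation was 3.95% with stk, that of Ifi27l2a, and 1.01% with DMSO, that of Ifi27. Summed over the members, the libraries ran from 484 to 736 FPKM with stk and from 548 to 793 FPKM with DMSO. What sets these libraries apart was not tested.

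**Figure D3:**
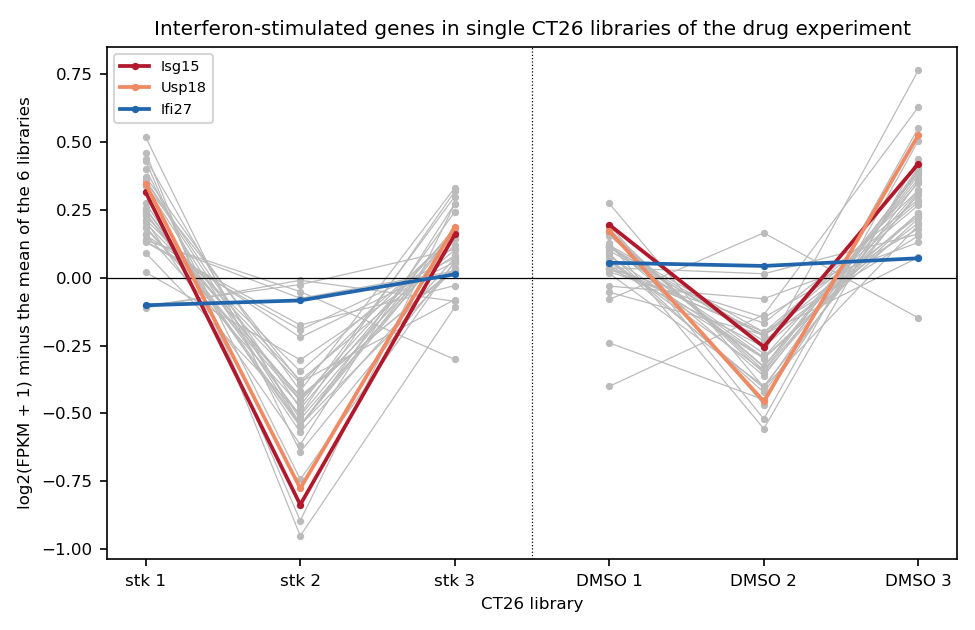
Each line is 1 of 35 members, drawn over the single CT26 libraries with stk (left) and DMSO (right); the vertical axis is log2(FPKM + 1) minus the mean of the 6 libraries, and the library numbers carry no order. Library 2 of each group is low for nearly all members, while Ifi27 hardly moves.

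Without the compound, nearly all effectors were higher in CT26 than in Hepa1-6. With DMSO, 35 of the 37 members reached a mean of 1 FPKM in CT26 and 18 did in Hepa1-6. Isg15 had 64.8, 47.2 and 75.9 FPKM in CT26, against 1.11, 1.15 and 1.01 FPKM in Hepa1-6, a log2 difference of 4.90 ± 0.27 (adjusted p = 1.83e-08). Ifit1 had 20.02, 14 and 23.3 FPKM in CT26, against 0.116, 0.0383 and 0.0194 FPKM in Hepa1-6. Neither gene overlapped between the lines. Oas2, with 9.62, 7.01 and 11.5 FPKM in CT26, was listed at 0, 0.0123 and 0 FPKM in Hepa1-6, and Ifi44, with 5.42, 2.94 and 7.01 FPKM, at 0.026, 0 and 0 FPKM. Oas3 (3.73), Oasl2 (3.52), Oasl1 (2.90), Trim30a (2.81), Ifi27l2a (2.60) and Rtp4 (2.53) also had large log2 differences. Of the genes named here, Ifit1, Oas2, Ifi44, Oas3, Oasl2, Trim30a and Rtp4 were at 1 FPKM only in CT26. Of the 35 tested members 34 were higher in CT26, where 76.8% of all genes were called, 38.5% higher and 38.4% lower, but 17 of these were at 1 FPKM only in CT26 and had to differ. Of the 18 members at 1 FPKM in both lines, 17 were higher in CT26. The libraries did not overlap for 36 of the 37 members, the untested Mx1 and Epsti1 among them, against 79.7% of all tested genes.

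Usp18 was the member that did not pass. It had 14.7, 9.17 and 19.1 FPKM in CT26, against 9.92, 10.1 and 10.1 FPKM in Hepa1-6, and the log2 difference was 0.42 ± 0.28 (limma adjusted p = 0.196), which became 0.69 (0.0405) without CT26 DMSO library 2. In the Hepa1-6 DMSO libraries the order of levels put Bst2 first (52.3 ± 2.69 FPKM), then Lgals3bp (18 ± 4.01), Trim25 (16.5 ± 0.472) and Usp18 (10.04 ± 0.105), where Lgals3bp and Trim25 lay within their spread. In CT26 with DMSO, Bst2 (177 ± 29.2 FPKM) came before Isg15 (62.6 ± 14.5), Lgals3bp (56.8 ± 18.7), Ifi27 (42.2 ± 0.426) and Oasl1 (35.5 ± 4.27) (SD, n = 3 each). Isg15 and Lgals3bp overlapped in these libraries, while Ifi27 overlapped neither Lgals3bp nor Oasl1; Oasl1 overlapped Oas1a, the next in order (26.9 ± 6.93 FPKM). Of 68 other pathway genes tested, 42 were higher and 23 lower in CT26, where 38.5% of all genes were higher and 38.4% lower. Some of them passed the filter through 1 line only and had to differ. Ifitm1, which blocks virus entry, had the largest difference (3.64 ± 0.12), with Ifi203 (3.45), Mb21d1, which encodes the DNA sensor cGAS (2.97), Phf11d (2.96) and Irf7 (2.79) next. Each of these averaged at most 0.208 FPKM in Hepa1-6 with DMSO. They passed the filter only through CT26, so they had to be higher there. Receptor and kinase genes were lower in CT26 in 7 of 9 cases.

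**Figure D4:**
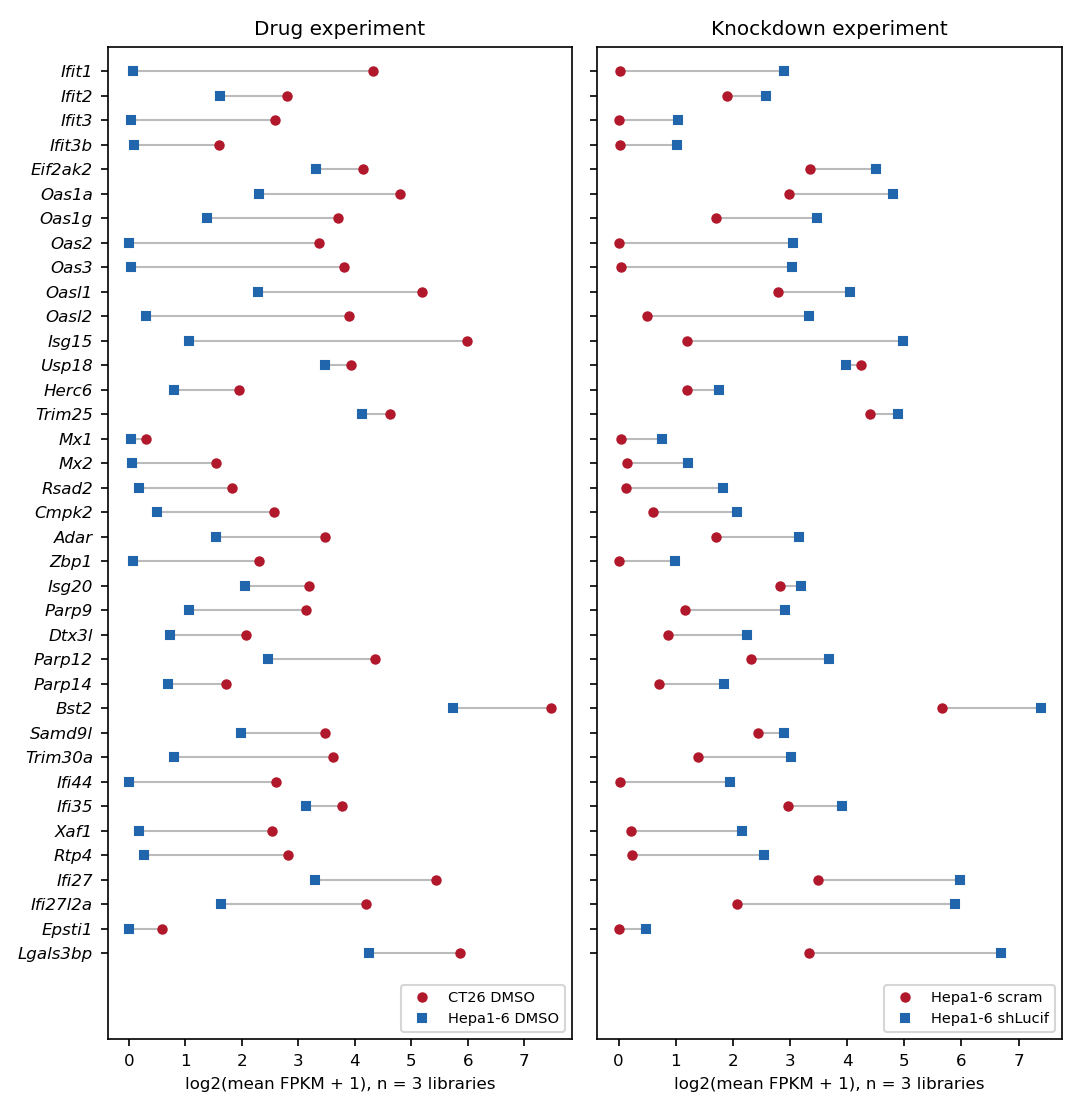
Mean level of each member as log2(mean FPKM + 1), n = 3 libraries a group; left, CT26 with DMSO (circles) and Hepa1-6 with DMSO (squares), and right, Hepa1-6 with scram (circles) and with shLucif (squares). In the left panel every circle lies right of its square, and in the right panel every circle but that of Usp18 lies left of its square.

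Among the Hepa1-6 control lines, nearly all members were lower in the libraries labelled scram than in those labelled shLucif. Isg15 had 1.43, 1.03 and 1.4 FPKM with scram, against 24, 31.4 and 35.7 FPKM with shLucif. Ifi27l2a had 3.55, 2.89 and 3.11 FPKM with scram, against 55, 55.1 and 64.5 FPKM with shLucif, the largest log2 difference at -3.82 ± 0.08 (adjusted p = 9.52e-08). Lgals3bp had 9.18, 8.56 and 9.64 FPKM with scram, against 92.4, 104 and 110.1 FPKM with shLucif. None of the 3 overlapped. Isg15 (-3.77), Lgals3bp (-3.35), Oas2 (-3.04), Oas3 (-2.99), Ifit1 (-2.87), Oasl2 (-2.82), Ifi27 (-2.48), Rtp4 (-2.30) and Xaf1 (-1.94) had the next largest differences. Oas2, Oas3, Ifit1, Oasl2, Rtp4 and Xaf1 were at 1 FPKM only with shLucif, so they had to be lower with scram. Of 32 tested members 31 were lower with scram and 1 higher, where 68.2% of all genes were called, 31.4% higher and 36.8% lower, but 12 of them were at 1 FPKM only with shLucif. Of the 20 members at 1 FPKM in both groups, 19 were lower with scram. Without any 1 shLucif library fewer members passed the filter, and 21 of 21 tested were called. The libraries did not overlap for 37 members, tested or not, against 73.2% of all tested genes. Usp18 was the exception, with 18.7, 17.1 and 18.3 FPKM with scram, against 14.2, 14.7 and 15.6 FPKM with shLucif (0.27 ± 0.05, adjusted p = 0.00332). Of the 12 hepatocyte markers, 4 averaged 1 FPKM or more with shLucif, against 8 with scram, and their sum was lower with shLucif, as given above. Hairpin and identity of the cells therefore cannot be told apart here.

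Set against CT26 with the same hairpin, the Hepa1-6 shLucif libraries were lower for 28 members and higher for 5 of 37, where 72.4% of all genes were called, 39.4% higher and 33% lower. Of the 34 members at 1 FPKM in both groups, 26 were lower and 4 higher. The others were Mx1, Zbp1 and Epsti1. Zbp1 was under 1 FPKM in Hepa1-6 shLucif and passed the filter through CT26, so it had to be lower in Hepa1-6. The libraries did not overlap for 33 members, against 75.2% of all genes. Ifit3 averaged 1.06 ± 0.22 FPKM in Hepa1-6 shLucif and 12.2 ± 0.0557 FPKM in CT26 shLucif, a log2 difference of -2.69 ± 0.13. Ifit1 averaged 6.4 ± 0.429 FPKM in Hepa1-6 shLucif, against 39 ± 0.368 FPKM in CT26 shLucif (SD, n = 3 each). Ifi27l2a (2.01 ± 0.11) and Lgals3bp (1.91 ± 0.12) were the largest of the members that were higher in Hepa1-6 shLucif, while Isg15 (-1.90), Ifi44 (-1.88), Zbp1 (-1.78), Rsad2 (-1.78), Oasl1 (-1.72) and Ifit3b (-1.42) were lower, on the log2 scale. Ifnb1 was listed at 0 in every Hepa1-6 library of both experiments. The baseline of the lines without these libraries is the DMSO comparison above.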

How the data were processed

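RNA sequencing of total RNA (paired reads, trimmed with Skewer, some libraries made with a SMARTer kit, per the labels' protocols) was deposited by the authors as FPKM, 1 table per experiment. The submitters' processing notes list GRCm38, HISAT2, STAR, DESeq2 and edgeR. Their roles and versions, and the strand setting, were not given in the sources used here. Tables were assigned to experiments by their column names, since the names of the tables are swapped. Of 45 labelled samples 30 were matched to a column by name. The tables hold 21 more columns without a label, which were not used, and the Hepa1-6 lines with Soat1 hairpins and stk samples 4 to 6 of each line were not analysed here. Library sums ran from 314827 to 335813 FPKM, and 11159 to 11555 genes reached 1 FPKM. Depth relative to the other libraries of a table, read from the steps of values under 0.05 FPKM, was 0.927 to 1.165 in the drug table and 0.639 to 1.145 in the knockdown table; this is approximate, since steps of 1 and 2 fragments can be mixed.

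Values were taken as log2(FPKM + 1), which shrinks the fold changes of low genes, and tested two-sided with limma 3.58.1 (moderated with a mean-variance trend, R 4.3.3). A model was fitted per line and experiment, or per table for comparisons between lines, keeping genes that reached 1 FPKM in 3 or more of its libraries. Benjamini-Hochberg adjustment ran over all those genes. The fits were tested on simulated data. With 3 libraries against 3 an exact permutation test cannot give p under 0.1, so none was used. Over all genes, same-numbered libraries of different groups did not deviate together (15 pairs, r from -0.067 to 0.091), although for the members library 2 was lowest in both CT26 groups of the drug experiment. Gene positions are from GENCODE on GRCm38 by gene identifier (99.7% of identifiers matched). Alternatives were a pseudocount of 0.1, no filter, a minimum of 5 FPKM, quantile normalization, 1 model for all libraries of a table, protein-coding genes only, removal of a transcript length trend, a replicate block and leaving out each library. The members, the 98 pathway genes, the markers and the tests were chosen with earlier results of these data known. Values in every library are given for up to 10 called members per comparison with the largest fold changes, and in their place the 3 largest where fewer than 3 were called; up to 5 called pathway genes are named, of which 1 is not reported here. The comparison of sh2 with sh1, and the naming of Ifnar1, came after the values were seen.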

Additional observations from a re-analysis of the deposited data

Results flagged for a closer look

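The response to stk of Mavs, a pathway gene outside the 37 members, differed between the lines by the interaction test. The log2 change was 0.01 ± 0.04 in CT26 and 0.30 ± 0.04 in Hepa1-6 (SE, n = 3 libraries a group), a difference of -0.29 (limma, adjusted p = 0.0456). Mavs had 30.1, 30.7 and 31.2 FPKM with stk, against 30.9, 29.5 and 31.2 FPKM with DMSO in CT26. The difference did not pass without any one of the 12 libraries (adjusted p from 0.0587 to 0.125).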

How the results depend on the processing

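The counts of called members stayed within 1.5 times their value under every alternative run, except for Hepa1-6 scram against shLucif. There, leaving out each library gave counts from 21 to 32 against 32: without any one shLucif library fewer members passed the filter, and all 21 tested were called. The replicate block left 36 members called for sh2 and 34 for sh3 against shLucif, with Mx1 lost (adjusted p = 0.0849). It left 0 called for stk in each line and for the difference of the responses, 32 for scram against shLucif in Hepa1-6, 34 for CT26 DMSO against Hepa1-6 DMSO, and 32 for Hepa1-6 shLucif against CT26 shLucif. No block was fitted where sh1 enters, since its columns carry no replicate number. For the members and 17 other named genes, 8735 alternative values were computed. Of these, 8611 stayed called or stayed uncalled, 103 lost the call and 21 gained it. Among the genes called in the main fit, 0 reversed direction. Changes of sign in genes not called in the main fit were not counted. Those named in the report as lost are Ifit2, Mx1 and Ifnb1 with sh3, Epsti1 with sh1, and Mavs with stk. Adar, Ifi44 and Ifit3b lost the call for the mean of the hairpins under some settings. FPKM hold no counts, so no interval for counting error could be given, and members near 0 in Hepa1-6 are read as listed values.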
